A study of Homo sapiens with 4 samples.

Results

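Condensin and cohesin are ring-shaped protein complexes that shape chromosomes, and the transcripts described here encode 10 of their subunits. The rows of the count table named SMC2, SMC4, NCAPD2, NCAPG, NCAPH, NCAPD3, NCAPG2, SMC1A, SMC3 and RAD21 were taken, which are 10 of 56304 genes in the table. All 10 were among the 15529 genes with enough counts to be tested, so no member was lost to the filter on low counts. Of the members, 7 belong to condensin and 3 to cohesin.

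Each complex is built on a pair of SMC proteins, long coiled-coil ATPases that are joined at one end by a hinge and bridged at the other by a kleisin subunit, to which large HEAT-repeat proteins bind. Condensin I and condensin II share SMC2 and SMC4, differ in their kleisin and HEAT-repeat subunits, and fold chromatin into compact chromosomes for cell division, with condensin I reaching chromatin after the nuclear envelope breaks down and condensin II residing in the nucleus. Cohesin, built on SMC1A, SMC3 and RAD21, holds sister chromatids together from replication to anaphase and also forms chromatin loops in cells that are not dividing.

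The libraries came from MV3, an established human melanoma line, which carried the nuclear label H2B-GFP in every sample. Spheroids of 50000 cells had been embedded in collagen I and were dissected at day 2, without drug or irradiation in the labels. The core was cut out with a 1 mm punch and the zone of cells that had moved into the collagen, here the invasion zone, with a 3 mm punch, with 2 bulk RNAseq libraries for each zone, numbered 1 and 2. As limits of the model, 1 cell line was used, the spheroids were larger than those used for microscopy, and the vertical punch can keep invading cells above and below the core in the core sample. The labels do not say whether the replicates came from separate cultures, so p-values measure only the spread between these libraries.

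Counts per library ranged from 11789243 to 37591782, and both replicate 2 libraries were the shallower ones. Libraries of 1 zone were not copies of each other, since chi-square over degrees of freedom for their counts was 33.8 in the core and 31.9 in the invasion zone. Of the 9 melanocyte or melanoma markers, SOX10 and TYR had 0 counts in every library. MITF lay between 1.71 and 3.37 CPM, which are counts scaled to a common library size by TMM factors. MLANA, PMEL, S100B and S100A1 were at or below 1.01 CPM in every library. VIM and AXL, which are not pigment genes, were abundant. The label of a melanoma line thus rests here on its name rather than on lineage markers. The 9 markers of blood, endothelial, epithelial and liver cells summed to between 8.09 and 19.0 CPM in the core and between 1.09 and 5.68 CPM in the invasion zone. Nearly all of that sum was PECAM1, an endothelial adhesion molecule, at 18.1 and 7.43 CPM in the core and 5.23 and 0.926 CPM in the invasion zone, and CD3E had 0 counts. The part of these markers in the results was not tested.

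The comparison asks whether subunits of these complexes were expressed at different levels in cells that had invaded the collagen and in cells that had stayed in the core. All 10 members had higher values in both invasion zone libraries than in both core libraries, against 28.1% of all genes tested. The condensin members stood 0.81 to 1.52 higher on the log2 scale in the invasion zone, with a median of 0.96, and the cohesin members 0.31 to 0.54 higher, with a median of 0.44. The median over all genes tested was -0.01. The largest differences were those of NCAPH and NCAPG, the kleisin and a HEAT-repeat subunit of condensin I.

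The edgeR quasi-likelihood test with Benjamini-Hochberg adjustment called 0 of the 10 members at an adjusted p under 0.05 and at least 2-fold, where it called 0.00% of all genes higher. The members' adjusted p-values ran from 0.112 to 0.214. With the p left unadjusted, under 0.05, and the 2-fold minimum kept, edgeR marked 3 members higher, NCAPG, NCAPH and NCAPG2, against 3.19% of all genes. Without the fold minimum it marked 9 members higher, all except RAD21, against 12.3% of all genes. These edgeR results had no replicate term. With a replicate term edgeR called NCAPG, NCAPH and NCAPG2 after adjustment and at least 2-fold, against 3.79% of all genes higher. All 10 members then had an edgeR adjusted p between 0.000133 and 0.0139, but the labels do not say what a replicate number shares.

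DESeq2, another test on the same counts, called the same 3 members higher after adjustment and at least 2-fold, against 2.27% of all genes. Without a fold minimum, DESeq2 called the 7 condensin members and 0 of the 3 cohesin members, against 5.25% of all genes. The count of called members also turned on single libraries in edgeR. Without core replicate 2 it called 6 members (3.99% of all genes), without invasion zone replicate 1 it called 4 (3.56%), without invasion zone replicate 2 it called 3 (0.869%), and without core replicate 1 it called 0 (0.0537%).

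**Figure D1:**
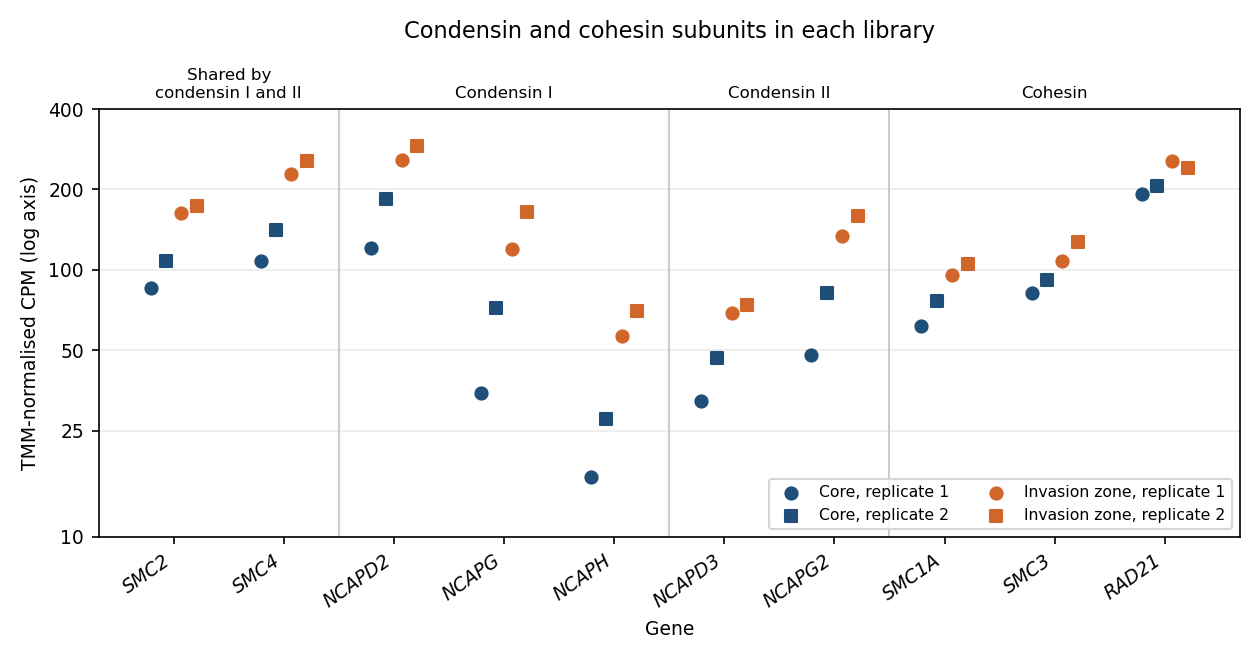
TMM-normalised CPM (log axis) of the 10 members in each library, with blue for core, orange for invasion zone, circles for replicate 1 and squares for replicate 2. For each gene both orange points lie above both blue points, and the gap is widest for NCAPG and NCAPH and narrowest for RAD21.

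The sequence before each start site was read for letters that occur in promoters of genes transcribed around mitosis. RefSeq promoter windows on GRCh38.p14 were found for 9 of the 10 members, all except RAD21, and with several starts for some genes they made 13 windows. The 250 bases before the start were read on both strands. TTTGAA, the core of the cell cycle genes homology region (CHR), was found in 4 members, SMC4, NCAPD2, NCAPG and SMC3. It was in 4 of the 13 member windows and in 13.3% of 35116 promoter windows. CCAAT, the box bound by the factor NF-Y, was found in 3 members, NCAPD2, NCAPH and NCAPD3. It was in 3 of the 13 member windows and in 32.0% of all windows. The E2F site forms TTTGGCGC, TTTCCCGC, TTTGCCGC and TTTCGCGC were found in 2 members, NCAPD3 and SMC1A. They were in 2 of the 13 member windows and in 2.79% of all windows. All matches of NCAPD3 and SMC1A lay in the window of the second of 2 starts. No match in a member overlapped another, and a match is a description, not a bound site.

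The 4 promoters printed here are those of the 3 condensin I subunits, which had both the largest and one of the smaller condensin differences, and of SMC3, a cohesin gene that holds the same CHR letters. They are read 5′ to 3′ on the plus strand, which is the gene's strand, each ends at the last base before the RefSeq start, and capitals mark the matches, which appear as TTCAAA for the CHR and as ATTGG for the CCAAT box where they lie on the minus strand.
NCAPG, chr4:17810859-17810978: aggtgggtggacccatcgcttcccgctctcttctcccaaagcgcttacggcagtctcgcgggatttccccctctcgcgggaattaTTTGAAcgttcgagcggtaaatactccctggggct
NCAPH, chr2:96335646-96335765: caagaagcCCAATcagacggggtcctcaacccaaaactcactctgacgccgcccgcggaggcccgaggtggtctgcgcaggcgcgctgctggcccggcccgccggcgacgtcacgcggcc
NCAPD2, chr12:6493902-6494101: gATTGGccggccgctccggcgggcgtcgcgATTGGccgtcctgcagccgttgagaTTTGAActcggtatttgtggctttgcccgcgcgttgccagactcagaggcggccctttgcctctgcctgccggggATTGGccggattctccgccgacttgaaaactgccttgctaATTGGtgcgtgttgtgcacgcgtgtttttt
SMC3, chr10:110567535-110567694: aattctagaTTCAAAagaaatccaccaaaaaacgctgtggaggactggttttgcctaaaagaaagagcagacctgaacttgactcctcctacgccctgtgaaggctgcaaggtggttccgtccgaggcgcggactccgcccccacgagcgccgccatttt
The CHR letters began 35 bases before the start in NCAPG, 145 bases before it in NCAPD2 and 151 bases before it in SMC3. The NCAPD2 window held CCAAT 4 times, each time on the minus strand, and the NCAPH window held it 1 time. SMC2 and NCAPG2 held none of the letters searched.

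SMC2 and SMC4 form the ATPase pair of both condensins. SMC2 (ENSG00000136824, chromosome 9, 104094260 to 104141419 on GRCh38) had 85.2 and 107 CPM in the core libraries of replicates 1 and 2 and 163 and 174 CPM in the invasion zone libraries. Both zones were tight, and the lowest invasion zone library was well above the highest core library. The SMC2 difference was 0.93 on the log2 scale within replicate 1 and 0.69 within replicate 2, and the fitted log2 difference was 0.81 with an approximate SE of 0.16 (edgeR adjusted p = 0.112). SMC4 (ENSG00000113810, chromosome 3, 160399274 to 160434954) had 108 and 141 CPM in the core and 228 and 255 CPM in the invasion zone. Its zones did not overlap, and its log2 difference was 1.08 and 0.85 within the replicates and 0.96 ± 0.18 (approximate SE) in the fit (edgeR adjusted p = 0.112). The partners kept close to each other, as the log2 ratio of SMC4 to SMC2 moved by only 0.14 and 0.16 between the zones of replicates 1 and 2.

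NCAPH is the kleisin that closes the condensin I ring. NCAPH (ENSG00000121152, chromosome 2, 96335766 to 96377091) had 16.7 and 27.6 CPM in the core and 56.4 and 70.1 CPM in the invasion zone, from raw counts between 416 and 2114. Both invasion zone libraries were above 2 times the higher core library. The log2 difference of NCAPH was 1.75 within replicate 1 and 1.35 within replicate 2, the fit gave 1.52 with an approximate SE of 0.28 (edgeR adjusted p = 0.112), and DESeq2 gave an adjusted p of 0.000112. Counting error was small beside this, since the fold within replicate 1 was 3.37 with a 95% exact interval from 3.08 to 3.70 and the fold within replicate 2 was 2.54 with an interval from 2.26 to 2.87.

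NCAPG and NCAPD2 are the HEAT-repeat subunits of condensin I. NCAPG (ENSG00000109805, chromosome 4, 17810979 to 17844865) had 34.7 and 71.9 CPM in the core and 120 and 165 CPM in the invasion zone. The core libraries themselves differed by 2.07-fold, the widest gap within a zone of any member, yet both stayed below both invasion zone libraries. Its log2 difference was 1.79 within replicate 1 and 1.20 within replicate 2, and 1.43 ± 0.37 (approximate SE) in the fit (edgeR adjusted p = 0.121). Leaving out core replicate 1 gave NCAPG a log2 difference of 1.00, and leaving out core replicate 2 gave 2.05.

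NCAPD2 (ENSG00000010292, chromosome 12, 6493356 to 6531955) had 121 and 185 CPM in the core and 258 and 290 CPM in the invasion zone. The zones did not overlap, although the core libraries were 1.53-fold apart. The log2 difference of NCAPD2 was 1.09 within replicate 1 and 0.65 within replicate 2, and 0.84 ± 0.23 (approximate SE) in the fit (edgeR adjusted p = 0.126), so it was closer to SMC2 and SMC4 than to NCAPG and NCAPH. Within the libraries, NCAPH gained on NCAPD2 by 0.66 and 0.70 on the log2 scale from core to invasion zone in replicates 1 and 2, and NCAPG gained on NCAPD2 by 0.70 and 0.55. These ratios do not depend on the scaling between libraries and were not tested.

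NCAPG2 and NCAPD3 are the HEAT-repeat subunits of condensin II. NCAPG2 (ENSG00000146918, chromosome 7, 158631169 to 158704804) had 47.8 and 81.7 CPM in the core and 134 and 159 CPM in the invasion zone. Core replicate 1 was the low library, and the zones did not overlap. The log2 difference of NCAPG2 was 1.48 and 0.96 within the replicates and 1.18 ± 0.28 (approximate SE) in the fit (edgeR adjusted p = 0.115). NCAPD3 (ENSG00000151503, chromosome 11, 134150113 to 134225504) had 32.1 and 46.6 CPM in the core and 68.7 and 73.6 CPM in the invasion zone. The invasion zone libraries of NCAPD3 nearly coincided, and its log2 difference was 1.10 and 0.66 within the replicates and 0.86 ± 0.21 (approximate SE) in the fit (edgeR adjusted p = 0.119). As in condensin I, the G subunit gained on the D subunit, by 0.39 and 0.30 on the log2 scale within replicates 1 and 2.

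NCAPH2, the kleisin of condensin II, was not among the members and completes the complex. NCAPH2 had 24.3 and 38.1 CPM in the core and 43.5 and 63.9 CPM in the invasion zone. Its zones did not overlap, and the fitted log2 difference was 0.78 with an approximate SE of 0.29 (edgeR adjusted p = 0.178). Without core replicate 1 the NCAPH2 difference was 0.50, and without invasion zone replicate 2 it was 0.49. Exons of NCAPH2 overlap those of SCO2 on the other strand.

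**Figure D2:**
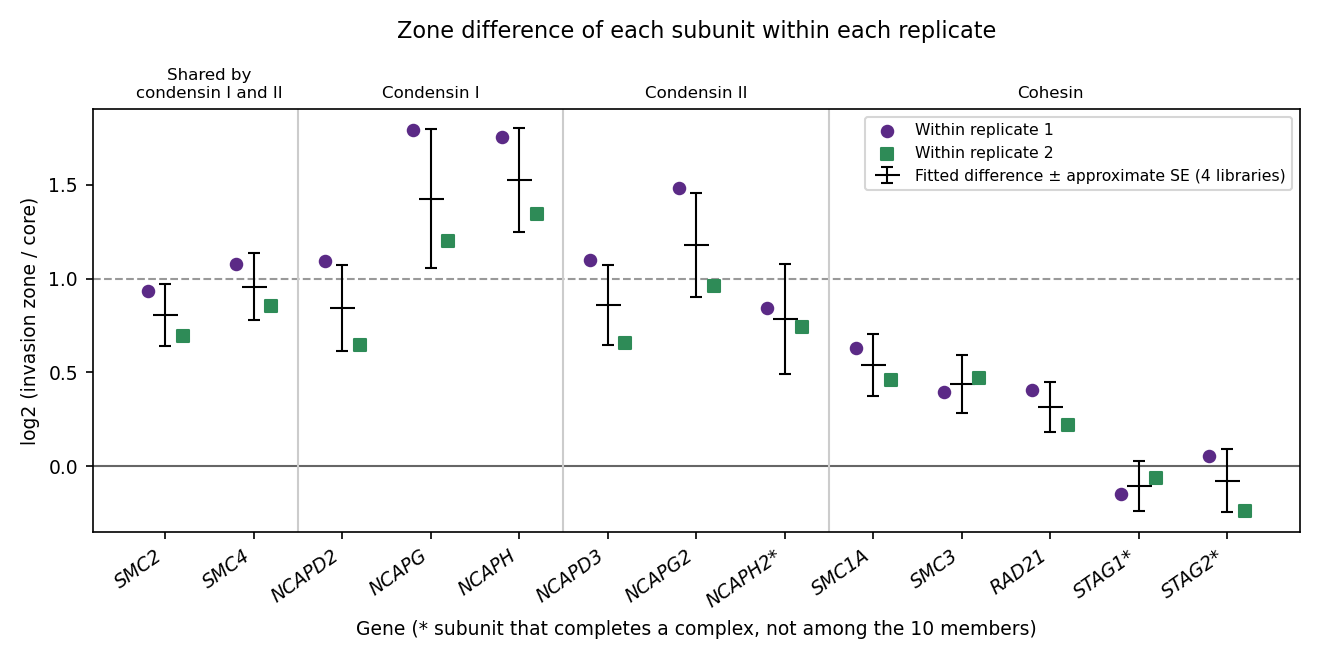
Log2 difference between invasion zone and core for each subunit, with the fitted value and its approximate SE (black bars) and the values within replicate 1 (circles) and replicate 2 (squares). Every condensin point lies above the 0.63 reached by the highest of SMC1A, SMC3 and RAD21, and STAG1 and STAG2 lie near 0.

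SMC1A and SMC3 form the ATPase pair of cohesin in somatic cells. SMC1A (ENSG00000072501, chromosome X, 53374149 to 53422728) had 61.5 and 76.6 CPM in the core and 95.3 and 105 CPM in the invasion zone. The zones did not overlap, and the log2 difference of SMC1A was 0.63 and 0.46 within the replicates and 0.54 ± 0.17 (approximate SE) in the fit (edgeR adjusted p = 0.142). SMC3 (ENSG00000108055, chromosome 10, 110567684 to 110606048) had 82.1 and 91.8 CPM in the core and 108 and 127 CPM in the invasion zone. SMC3 was the only member with a larger difference in replicate 2 than in replicate 1, with log2 differences of 0.40 within replicate 1 and 0.47 within replicate 2, and the fit gave 0.44 ± 0.15 (approximate SE) (edgeR adjusted p = 0.162).

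RAD21 is the kleisin of mitotic cohesin, the subunit that separase cuts to release sister chromatids. RAD21 (ENSG00000164754, chromosome 8, 116845934 to 116874776) had 192 and 206 CPM in the core and 255 and 241 CPM in the invasion zone. It was the only member for which invasion zone replicate 2 was below invasion zone replicate 1, and the zones still did not overlap. The log2 difference of RAD21 was 0.41 within replicate 1 and 0.22 within replicate 2, and 0.31 ± 0.13 (approximate SE) in the fit (edgeR adjusted p = 0.214), the smallest of the members. Within replicate 2 the fold of RAD21 was 1.17 with a 95% exact counting interval from 1.11 to 1.23.

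STAG1 and STAG2, alternative HEAT-repeat subunits of cohesin that were not among the members, were not higher in both invasion zone libraries. STAG1 had 108 and 99.6 CPM in the core and 97.2 and 95.5 CPM in the invasion zone, and its fitted log2 difference was -0.11 with an approximate SE of 0.13 (edgeR adjusted p = 0.658). STAG2 had 105 and 100.1 CPM in the core and 109 and 84.8 CPM in the invasion zone, and its fitted log2 difference was -0.08 with an approximate SE of 0.17 (edgeR adjusted p = 0.809). The libraries of STAG2 overlapped between the zones, and those of STAG1 were separated by a small gap in the other direction. Taken by role, the kleisins differed by 1.52 (NCAPH), 0.78 (NCAPH2) and 0.31 (RAD21) on the log2 scale.

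To set condensin against cohesin without any scaling between libraries, the mean log2 CPM of the 3 cohesin members was subtracted from that of the 7 condensin members in each library. This log2 ratio was -0.94 and -0.50 in the core libraries of replicates 1 and 2 and -0.10 and 0.02 in the invasion zone libraries. Both invasion zone libraries were above both core libraries, and the cores of the replicates were further apart than their invasion zones. The change from core to invasion zone was 0.84 within replicate 1 and 0.52 within replicate 2, with a mean of 0.68 ± 0.22 (SD, n = 2). No test was made on this ratio, because the members had been chosen with results of these data known.

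The change relative to cohesin was 1.07 and 0.68 for the condensin I subunits alone, 0.81 and 0.42 for the condensin II subunits alone and 0.53 and 0.39 for SMC2 and SMC4, in replicates 1 and 2. Condensin I gained on condensin II by 0.26 in both replicates. With NCAPH2, STAG1 and STAG2 added, the change was 0.99 and 0.72. The lowest condensin member was above the highest cohesin member within each replicate, at 0.93 against 0.63 in replicate 1 and at 0.65 against 0.47 in replicate 2.

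**Figure D3:**
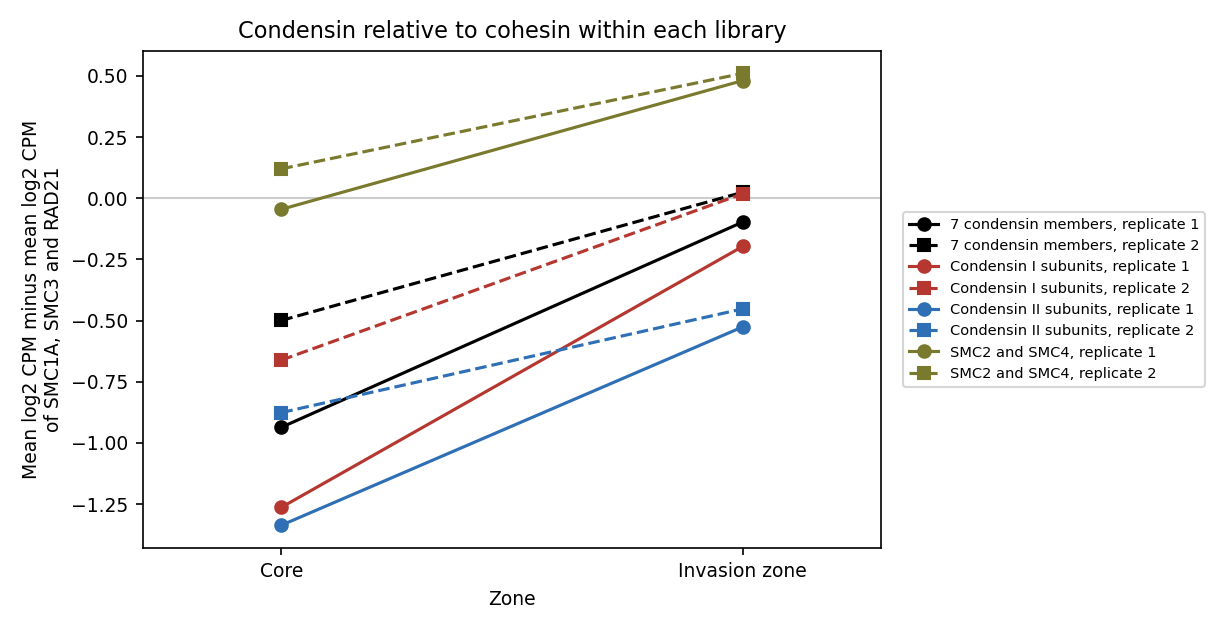
Mean log2 CPM of condensin genes minus mean log2 CPM of SMC1A, SMC3 and RAD21 in each library, joined from core to invasion zone within replicate 1 (solid lines) and replicate 2 (dashed lines). All lines go up from core to invasion zone, by 0.84 and 0.52 for the 7 condensin members, and the lines for replicate 1 start lower in the core.

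The size of the zone difference was not the same in the 2 replicates. Within replicate 1, 6 members differed by at least 2-fold, all of them condensin genes, against 6.50% of all genes. Within replicate 2, NCAPG and NCAPH did, against 5.49% of all genes, and both genes passed 2-fold within each replicate, against 2.60% of all genes. The difference was larger in replicate 1 for 9 of the 10 members, and all 10 had a higher value in core replicate 2 than in core replicate 1. Both counts use the core replicate 1 values, so they are not independent. The share of all genes was not computed for either count, so neither is shown to be particular to the members. Since the replicates differ in depth, and the labels give no batch, depth and replicate cannot be told apart here. In these bulk samples, fewer cells that express a gene and less RNA of it per cell cannot be told apart either.

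Levels of different subunits were compared only per length, as TPM (counts divided by gene length and scaled to a common sum), and the order depended on the gene length used. With the union of all annotated exons, NCAPD2 was the highest member in every library, at 75.0 and 121 TPM in the core and 161 and 184 TPM in the invasion zone, and RAD21 had 53.7 and 60.7 TPM in the core and 71.9 and 68.8 TPM in the invasion zone. That union is 14382 bases long for RAD21, against 3660 bases for its canonical transcript, a length tried after seeing the data. With the canonical transcript RAD21 was above NCAPD2 in every library, at 121 and 136 TPM in the core and 161 and 154 TPM in the invasion zone. The order of SMC1A and SMC3 also turned with the length, as did that of NCAPD3 and NCAPH in the core. NCAPH was the lowest condensin I subunit in every library with either length.

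With the canonical transcript, core means were 128 ± 10.6 TPM for RAD21, 74.9 ± 24.5 TPM for NCAPD2, 57.4 ± 12.5 TPM for SMC4, 38.3 ± 7.46 TPM for SMC2, 37.8 ± 15.1 TPM for NCAPG2, 37.1 ± 4.11 TPM for SMC3, 27.5 ± 14.4 TPM for NCAPG, 16.8 ± 3.12 TPM for SMC1A, 12.6 ± 3.67 TPM for NCAPD3 and 8.69 ± 3.27 TPM for NCAPH (SD, n = 2). RAD21 stood clear of NCAPD2, and from NCAPD2 downwards the intervals of mean ± SD of neighbours in this order overlapped. Within each core library, however, NCAPD2 was above SMC4, which was above SMC2, and SMC1A was above NCAPD3, which was above NCAPH. With the exon union NCAPH was instead above NCAPD3 in both core libraries, at 10.3 and 17.8 TPM against 6.90 and 10.5 TPM. With the canonical transcript NCAPG2 was below SMC2 and SMC3 in core replicate 1 and above both in core replicate 2. With the exon union it was above SMC3 and below SMC2 in both. In the invasion zone, again with the canonical transcript, NCAPG reached 72.3 ± 16.5 TPM and was above SMC3, at 49.6 ± 6.02 TPM, in both libraries. NCAPH reached 24.4 ± 3.89 TPM there, level with SMC1A at 24.0 ± 1.84 TPM and NCAPD3 at 22.4 ± 1.22 TPM. With the exon union NCAPD3 was lower there, at 15.5 ± 0.892 TPM, against 39.5 ± 6.41 TPM for NCAPH and 37.8 ± 3.02 TPM for SMC1A.

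The proteins that act on these complexes were read from lists written down for their known roles, 40 genes in all, of which 39 were tested. The lists were chosen with earlier results of these data known, so counts set against the share of all genes are descriptions only. The edgeR test called 0 of the 39 genes after adjustment. At an unadjusted p under 0.05 and at least 2-fold, edgeR marked 13 of them higher and 0 lower. Of all genes it marked 3.19% higher and 6.41% lower. After adjustment and at least 2-fold, DESeq2 called 13 of them higher and 0 lower, against 2.27% of all genes higher and 3.44% lower. Both invasion zone libraries were above both core libraries for 19 of the 39, against 28.1% of all genes. They were below both for 7, for which the share of all genes was not computed.

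Of the 9 genes for cohesin loading, release and acetylation, edgeR marked 2 higher at the unadjusted threshold. CDCA5 encodes sororin, which keeps replicated cohesin on chromatin, and had 21.2 and 44.5 CPM in the core and 66.3 and 95.7 CPM in the invasion zone, with a fitted log2 difference of 1.31 (edgeR adjusted p = 0.136). ESCO2, the acetyltransferase that locks cohesin during replication, had 7.96 and 17.8 CPM in the core and 29.0 and 31.1 CPM in the invasion zone, with a log2 difference of 1.25 (edgeR adjusted p = 0.142). For both genes the zones did not overlap and core replicate 1 was the lowest library. Without core replicate 1 the log2 difference was 0.87 for CDCA5 and 0.76 for ESCO2, and without core replicate 2 it was 1.94 and 1.92. The remaining 7, the loader NIPBL at -0.13 and its partner MAU2 at -0.38, the release factor WAPL at 0.13, PDS5A at 0.20, PDS5B at -0.05, the other acetyltransferase ESCO1 at -0.36 and the deacetylase HDAC8 at 0.05 on the log2 scale, did not pass it.

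All 4 genes for cohesin protection and cleavage passed the unadjusted threshold. They were SGO1 at 1.57 and SGO2 at 1.07, which shield centromeric cohesin, the protease separase (ESPL1) at 1.20, and its inhibitor securin (PTTG1) at 1.28, as fitted log2 differences with edgeR adjusted p-values from 0.112 to 0.124. For PTTG1 the log2 difference was 0.87 without core replicate 1 and 1.87 without core replicate 2. SGO1 had 5.23 and 8.42 CPM in the core and 20.0 and 19.4 CPM in the invasion zone. CTCF, the DNA-binding protein at which cohesin loops stop, was at 0.08 on the log2 scale. None of the meiotic cohesin genes RAD21L1, REC8 and STAG3 passed the threshold, and SMC1B was too low to be tested.

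Of the 11 mitotic chromosome partners, 7 passed the unadjusted threshold, all higher in the invasion zone. TOP2A, the topoisomerase of mitotic chromosomes, had 94.0 and 159 CPM in the core and 267 and 291 CPM in the invasion zone (log2 difference 1.15), and TOP2B, the form used outside division, had 162 and 144 CPM in the core and 152 and 139 CPM in the invasion zone (log2 difference -0.07). MKI67, which coats mitotic chromosomes and marks cycling cells, had 47.9 and 106 CPM in the core and 165 and 185 CPM in the invasion zone (log2 difference 1.19). KIF4A, a kinesin that works with condensin I, stood at 1.27, and the mitotic kinases AURKB, CDK1 and PLK1 and the cyclin CCNB1 stood at 1.55, 1.39, 1.32 and 1.16. These sizes depended on the core libraries. Without core replicate 1 the log2 differences were 0.73 for MKI67, 0.78 for KIF4A, 1.01 for AURKB, 0.98 for CDK1, 0.78 for PLK1 and 0.68 for CCNB1, and without core replicate 2 they were 1.87, 2.00, 2.40, 1.99, 2.21 and 1.90. MKI67 and TOP2A thus moved with the condensin members, in the same order of libraries in the core, and the part of cycling cells in the condensin values was not tested. MCPH1, PHF8 and PPP2R5A lay between -0.17 and 0.15 on the log2 scale.

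**Figure D4:**
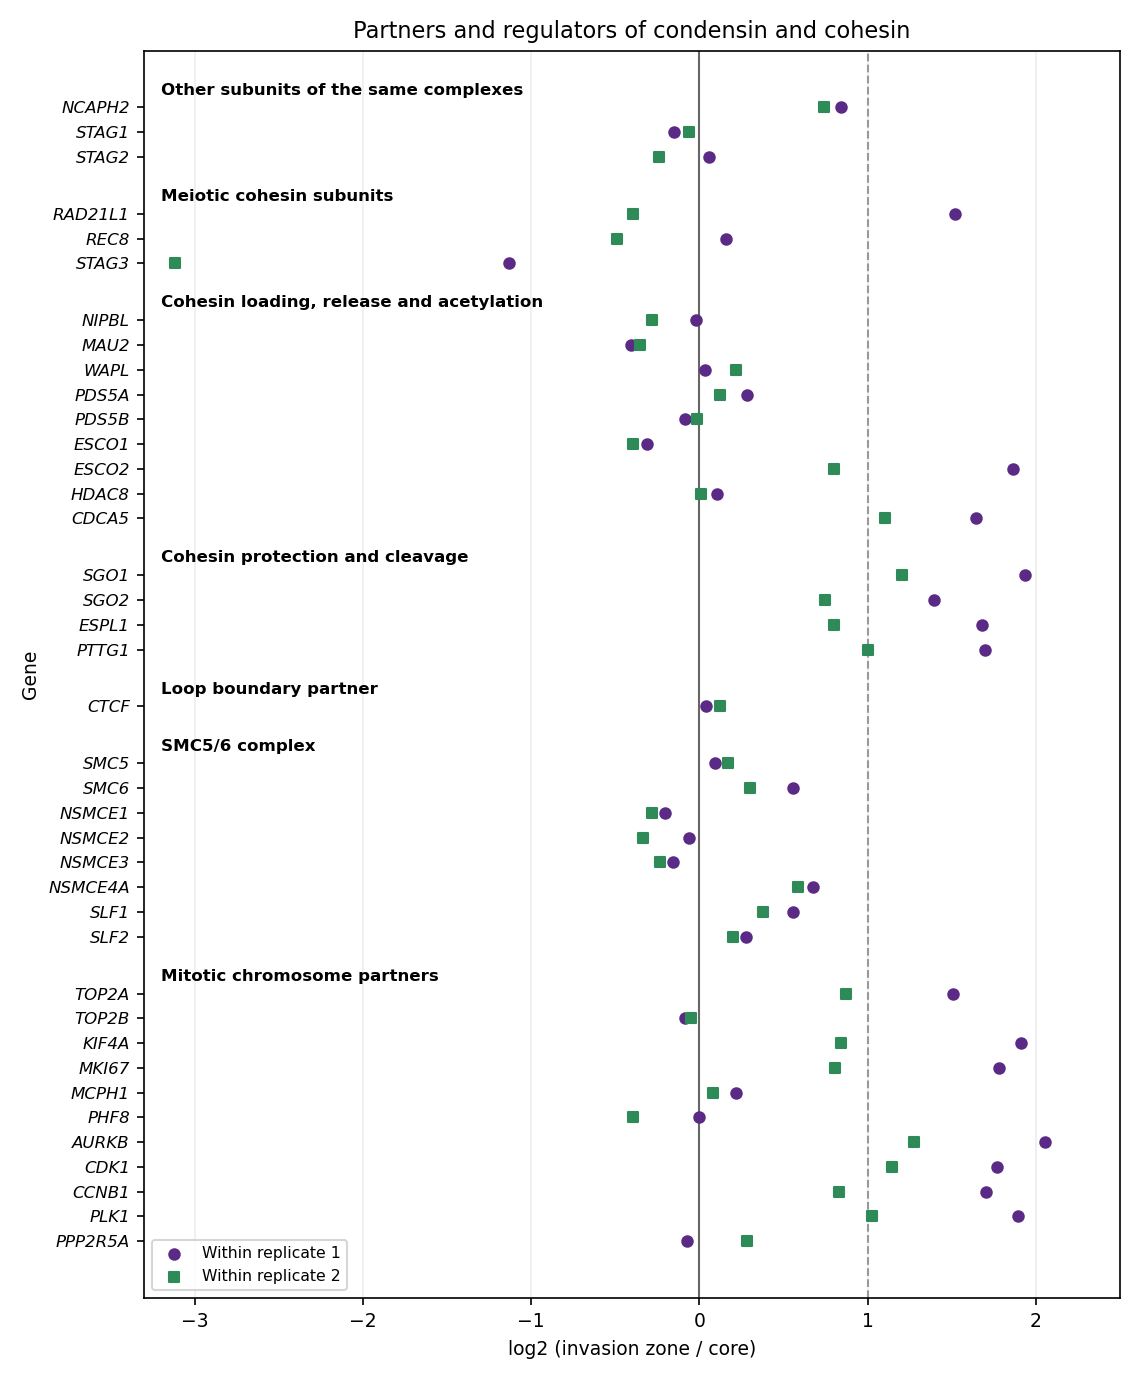
Log2 difference between invasion zone and core for the 39 tested partner genes, grouped by role, within replicate 1 (circles) and replicate 2 (squares). Genes for cohesin protection and cleavage lie between 0.75 and 1.93, NIPBL, MAU2, WAPL, PDS5A and PDS5B lie between -0.40 and 0.28, and STAG3, the point far to the left, has 1 count in an invasion zone library.

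Where exons overlap a gene on the other strand, reads could come from either gene, because the strand setting of the counting is not given in the sources used here. In GENCODE release 44 such overlap covers 1796 of 8164 exon bases of SMC4 (IFT80 and TRIM59), 1634 of 4847 of NCAPG (LCORL), 2234 of 18698 of NCAPD3, 847 of 14382 of RAD21, 383 of 6470 of NCAPD2 and 39 of 10830 of SMC1A. SMC2, NCAPH, NCAPG2 and SMC3 have none.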

How the data were processed

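Bulk RNAseq of 2 core and 2 invasion zone libraries was analysed. The deposited values are raw counts per gene. To make these counts, the authors filtered out ribosomal reads with Bowtie, aligned the rest to hg38 with STAR and counted unique reads with HTSeq, and they compared the zones with DESeq2. Their tool versions, annotation and strandedness are not stated in the sources used here. Of 56306 rows, 2 repeated rows without counts were left out. In R 4.3.3, filterByExpr (10 counts, 15 in total) kept 15529 genes. TMM factors lay between 0.985 and 1.009. The main test was edgeR 4.0.16's quasi-likelihood test without a replicate term, Benjamini-Hochberg adjusted over all genes tested, with a call at an adjusted p under 0.05 and at least 2-fold. The approximate SE is the log2 difference over the root of its F. DESeq2 1.42.0, limma 3.58.1 voom, other scalings, count filters, a replicate block, correction for GC content and length, thinning and each library left out were alternatives. Fold intervals within a replicate are exact binomial 95% intervals and cover counting error only. TPM used exon lengths of GENCODE release 44, which holds 98.1% of the table's identifiers, and promoters came from RefSeq. Protein sequences were not analysed here. The procedure was tested on simulated data. The members, lists and tests were chosen with earlier results of these data known, and all 10 members were named, with other genes only from whole lists. Figures were drawn with matplotlib 3.10.9.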

Additional observations from a re-analysis of the deposited data

How the results depend on the processing

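The log2 differences of the 10 members were above 0 in all 180 values from 18 other settings, of which 67 had an adjusted p under 0.05, and the condensin members stayed above the cohesin members in each of them. All of these settings reuse the same libraries, so the values are not independent of each other. For all 10 members both invasion zone libraries were above both core libraries, so leaving out 1 library could not by itself turn a sign. With TMM factors between 0.985 and 1.009, dropping that scaling could change the differences only little. The shared signs are therefore not a separate check of the direction. The count of called genes did depend on the settings. It stayed at 0 for genes called higher and lower, members and other list genes with RLE or upper-quartile scaling, total counts, at least 10 counts in every library, limma voom, the legacy quasi-likelihood fit, GC and length correction, thinning, or no fold minimum. Without the count filter 81 genes were called higher and 191 lower, with 1 member (NCAPH) and 1 other list gene. DESeq2 called 353 and 534, with 3 members and 13 other list genes, and 815 and 866 with 7 members and 13 other list genes when the fold minimum was dropped, an alternative chosen after seeing the data. An unadjusted p gave 495 and 995, with 3 members and 13 other list genes, and with no fold minimum, also chosen after seeing the data, 1905 and 2045, with 9 members and 16 other list genes. Leaving out 1 library gave 8 to 693 genes higher, 108 to 969 lower, 0 to 6 members and 0 to 14 other list genes. A lone library is then assumed to vary like the other zone's pair. The cause of these differences was not tested.

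Libraries with the same number shared part of their deviation from the zone mean (r = 0.525 across genes, 2 pairs), but the labels do not tie the number to a shared spheroid, day or batch. The paper describes punching out a core and then removing its corresponding invasion zone, without tying this to the replicate numbers. With a replicate block, 588 genes were called higher and 1147 lower, with 3 members (NCAPG, NCAPH and NCAPG2) and 13 other list genes, and all 10 members had an edgeR adjusted p between 0.000133 and 0.0139. With the block and no fold minimum the counts were 3107 and 3116, with 10 members and 17 other list genes higher and 2 lower. DESeq2 with the block gave 428 and 750 with 3 members and 13 other list genes, limma voom with the block, added after seeing the data, 575 and 1088 with 3 and 13, and the block with GC and length correction 811 and 1045 with 5 and 14. That correction moved the share of calls that were higher from 33.9% to 43.7%. With 2 libraries per zone, the fit without the block has 2 residual degrees of freedom, and the fit with it has fewer. A member that was not called is not shown to be equal between the zones.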

Other observations

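The SMC5/6 complex, the third SMC complex of the nucleus, which acts in DNA repair, stood apart from condensin in its values. Of its 8 genes, edgeR called 0 after adjustment, where it called 0.00% of all genes higher. At an unadjusted p under 0.05 and at least 2-fold it marked 0, against 3.19% of all genes higher. DESeq2 called 0 after adjustment and at least 2-fold, against 2.27% of all genes higher. These counts of 0 do not separate it from condensin, since each 2-fold rule marked only 3 of the 7 condensin members. Without the fold minimum edgeR marked 2 higher, NSMCE4A and SMC6, against 12.3% of all genes. NSMCE4A, its kleisin, had 32.4 and 40.9 CPM in the core and 51.7 and 61.4 CPM in the invasion zone, with a fitted log2 difference of 0.63. SMC6 had 35.3 and 41.6 CPM in the core and 51.9 and 51.3 CPM in the invasion zone, with a log2 difference of 0.43. Its ATPase partner SMC5 had 37.0 and 42.3 CPM in the core and 39.5 and 47.5 CPM in the invasion zone, so that its zones overlapped. NSMCE1, NSMCE2 and NSMCE3 were lower in each invasion zone library than in either core library, with log2 differences of -0.24, -0.19 and -0.19. SLF1 and SLF2 stood at 0.46 and 0.24 on the log2 scale. SMC6 and SLF1 lay within the cohesin members' range of 0.31 to 0.54 and NSMCE4A above it, and the remaining genes lay below it. The median over the 8 genes was 0.18 on the log2 scale, and the difference from condensin was not tested.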
